A study of Homo sapiens with 2 samples.

Results

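The cytosolic ribosomal protein genes are the nuclear genes that encode the protein parts of the ribosome that works in the cytosol. They were taken by symbol from the authors' deposited table: protein-coding genes named RPL, RPS or RPLP with a number, plus RPSA, without the RPS6K kinases. This rule found 83 genes among the 27655 of the table, of which 15867 are protein-coding. Of the 83, 51 belong to the large subunit and 32 to the small subunit. The rule used names only and no measured value. It takes in paralogues such as RPL22L1 and RPS27L, and leaves out ribosomal proteins such as FAU, RACK1 and RPL36AL, whose symbols have another form.

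RNA was sequenced from PC9-BrM3, a lung cancer line selected from PC9 adenocarcinoma cells for growth in the brain, in routine culture. The cells labelled shPCDH1 carry a short hairpin and have the genotype PCDH1 knockdown. The control cells labelled shNC are given as wild type. GEO lists 1 sample per group, and the number of hairpins or clones is not given in the sources used here. The deposited comparison is coded as group 8 against group 7, no label says which code is shPCDH1 and which is shNC, and every value is therefore written as group 8 relative to group 7.

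A ribosome has a small subunit, which decodes the mRNA, and a large subunit, which joins amino acids and passes the growing chain out through an exit tunnel. Ribosomal proteins are made in matched amounts and assembled with ribosomal RNA in the nucleolus, and a cell that divides spends much of its transcription and translation on them. Their mRNAs begin with a C followed by a run of pyrimidines, the 5′ terminal oligopyrimidine (TOP) motif, through which LARP1 and MTOR control their translation and stability. MYC raises the transcription of many of them, and loss of 1 copy of several causes Diamond-Blackfan anaemia.

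PCDH1, the protocadherin targeted by the hairpin, was lower in group 8, with a log2 fold change of -1.38 ± 0.14 and an adjusted p of 1.76e-20 in the authors' deposited table. This value was not used to assign either code. Here and below the error is an implied standard error (SE), obtained from each fold change and its deposited p-value on the assumption of a normal two-sided test, and a gene is called when the authors' adjusted p is under 0.05. Nothing in the labels says that libraries came from separate cultures, so the p-values measure only the spread between these libraries. Of the markers of lung adenocarcinoma cells, the keratin KRT18 was lower in group 8 at -0.50 ± 0.17 with an adjusted p of 0.0184. KRT8 at -0.35 ± 0.17, KRT19 at -0.26 ± 0.15 and EPCAM at 0.079 ± 0.10 were not called, nor were the leukocyte markers PTPRC at -0.12 ± 0.69 and CD14 at -0.062 ± 0.50. Levels per library were not used, so whether the defining markers are present could not be checked.

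The start of the mRNA is shown for 8 called genes, because the TOP motif is the feature that ties this family together. Each line gives 20 bases before and 20 bases from the annotated start on the gene's strand, with capitals for an unbroken run of C and T that begins with a C at the start. The sequences and starts are those of RefSeq on GRCh38.p14. RPL36A lies at chrX:101390991-101391030 on the plus strand, RPL22 at chr1:6199576-6199615 on the minus strand, RPL26 at chr17:8383174-8383213 on the minus strand, and RPLP2 at chr11:809947-809986 on the plus strand. RPS12 lies at chr6:132814549-132814588, RPS27 at chr1:153990742-153990781, RPL27 at chr17:42998399-42998438 and RPL15 at chr3:23916525-23916564, all on the plus strand.
RPL36A: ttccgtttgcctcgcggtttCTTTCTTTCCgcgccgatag
RPL22: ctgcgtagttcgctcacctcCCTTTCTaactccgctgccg
RPL26: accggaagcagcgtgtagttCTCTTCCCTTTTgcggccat
RPLP2: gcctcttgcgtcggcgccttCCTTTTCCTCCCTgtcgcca
RPS12: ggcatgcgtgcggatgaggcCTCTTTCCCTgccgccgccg
RPS27: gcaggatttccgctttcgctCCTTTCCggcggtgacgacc
RPL27: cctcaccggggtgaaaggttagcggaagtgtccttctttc
RPL15: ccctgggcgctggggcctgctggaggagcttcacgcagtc
RPLP2 has the longest run of these 8, at 13 bases. RPS27, the 1 gene of the family called higher, has a run of 7, the same length as RPL22, which was called lower. RPL27 and RPL15 were called lower and have no such run at the starts shown, and RPL15 has none at any of its 3 starts in RefSeq. Only a run that begins exactly at the annotated base was counted, so the result depends on where RefSeq places the start. The RPL27 line holds an unbroken run of C and T further on, at its end. Whether the mRNAs of RPL27 and RPL15 carry a TOP motif was not tested.

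In the authors' deposited table, the ribosomal protein genes leaned lower in group 8, by small amounts for most genes and by more for a few. The median log2 fold change of the 83 was -0.16, with quartiles of -0.40 and -0.02 and a range of -1.15 to 0.76. Of the 83, 63 lay below 0, which is 75.9%. The authors gave an adjusted p below 1, here called tested, to 82 of the 83, all but RPL3L, the paralogue of RPL3 known from striated muscle. Of the 13609 protein-coding genes tested, 49.6% lay below 0, and their median was 0.0048. Of the 82, 15 were called lower and 1, RPS27, was called higher, which is 18.3% and 1.22%. Over the tested protein-coding genes, 13.4% were called lower and 12.7% higher. Over all 18002 genes tested, 11.2% were called lower and 10.4% higher. In RNA from a whole culture, less RNA per cell and fewer cells of one kind cannot be told apart.

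**Figure D1:**
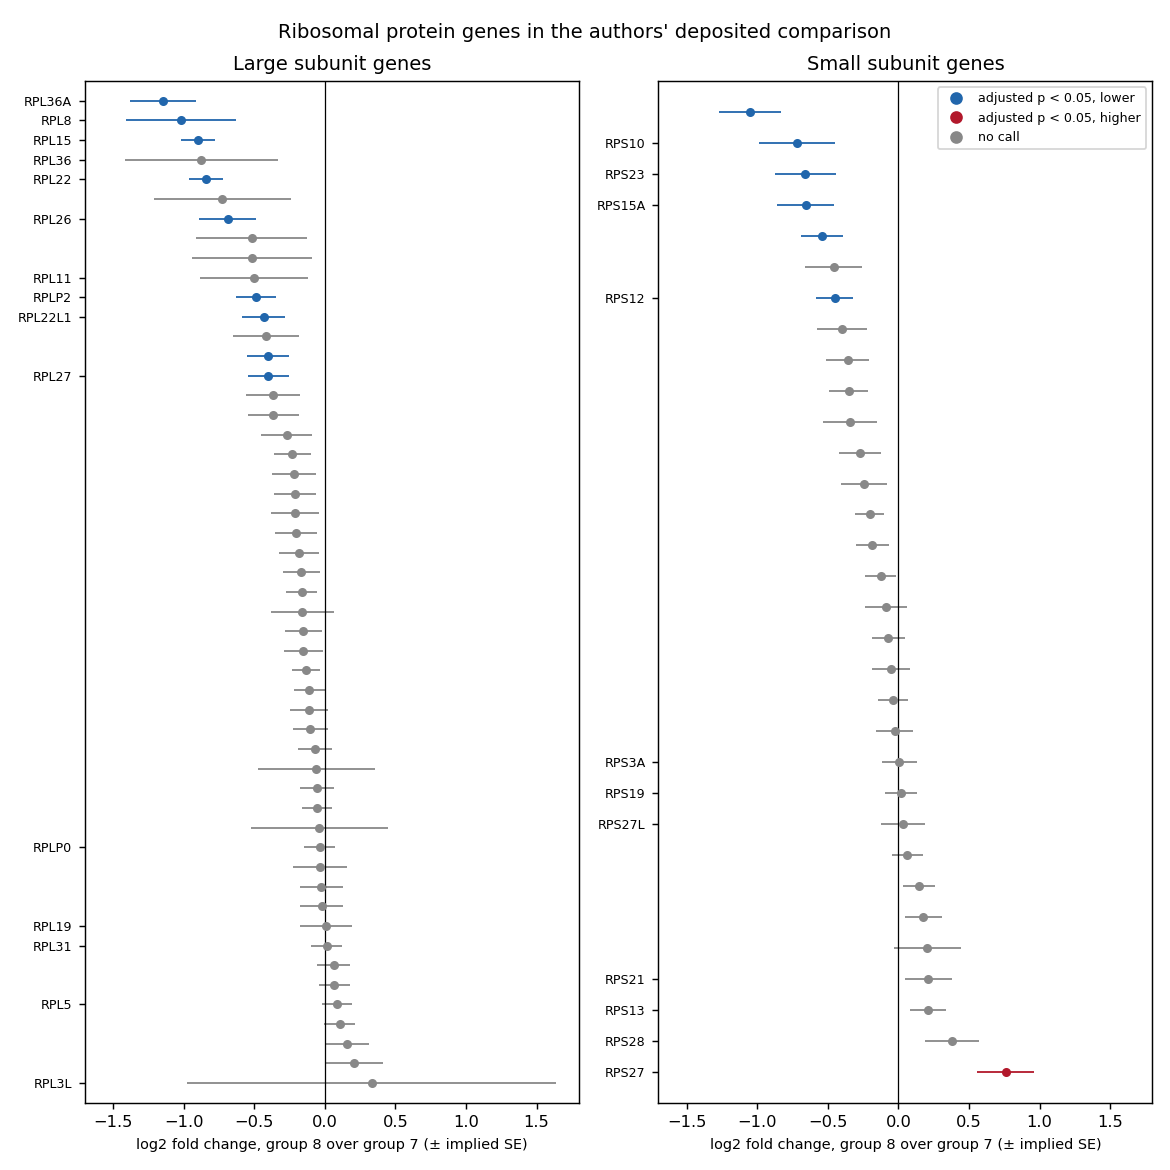
Log2 fold change of each ribosomal protein gene, group 8 over group 7, for the large subunit (left, 51 genes) and the small subunit (right, 32 genes), from the authors' deposited table. Genes run down the page by fold change, with some of those described in the text labelled. Points are fold changes, bars are 1 implied standard error, and colour marks an adjusted p under 0.05: 15 genes are called lower and RPS27 alone is called higher.

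The share called has to be read beside how precisely the genes were measured. The median implied SE of the 82 genes was 0.149. Of protein-coding genes with an SE up to that value, 19.4% were called lower and 10.1% higher, and 58.3% lay below 0. Of the 41 ribosomal protein genes in the same range, 6 were called lower and 0 higher, which is 14.6% lower, and 73.2% lay below 0. Of protein-coding genes with an SE above that value, 10.8% were called lower and 13.7% higher, and 45.9% lay below 0. Of the 41 ribosomal protein genes above it, 9 were called lower and 1 higher, and 80.5% lay below 0. The share called lower was thus below the background among the precisely measured genes and above it among the others, and the share below 0 was above the background in both. None of these shares was tested. In the cumulative plot both subunits lie left of the other protein-coding genes over the middle of the range, and 20 of the 83 genes lie above 0.

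**Figure D2:**
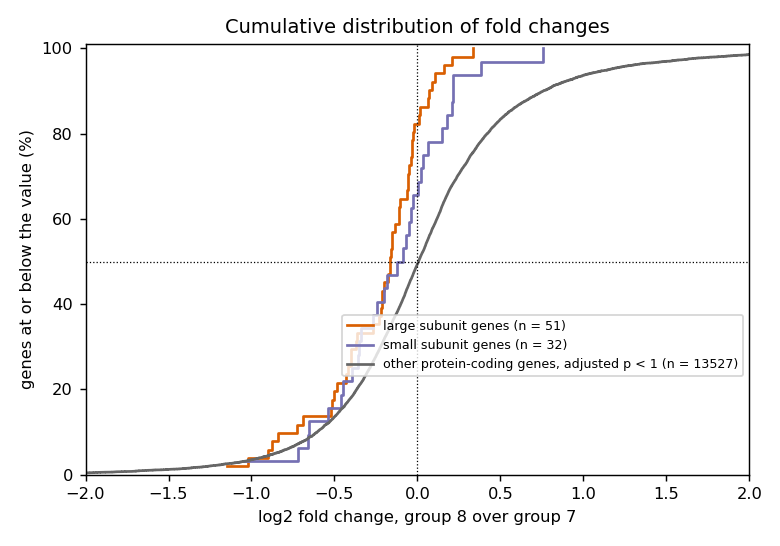
Cumulative share of genes (percent) at or below each log2 fold change, group 8 over group 7, for large subunit genes, small subunit genes and the other tested protein-coding genes. The curves of the large and small subunit cross 0 at 82.4% and 65.6% of their genes.

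Large subunit genes had a median of -0.16, and 42 of the 51 lay below 0. Of the 50 tested, 9 were called lower and none higher at an adjusted p under 0.05, which is 18.0% lower. Over the tested protein-coding genes, 13.4% were called lower and 12.7% higher. RPL36A, a protein near the site from which spent tRNA leaves, was the lowest of the family at -1.15 ± 0.23 with an adjusted p of 1.6e-05. Group 8 held 45.2% of the group 7 level. RPL15, a core protein of the large subunit that is mutated in some patients with Diamond-Blackfan anaemia, was at -0.90 ± 0.12 with an adjusted p of 2.5e-12, the smallest of the family. RPL22, an RNA-binding protein that is not essential in mice, was at -0.84 ± 0.12 with an adjusted p of 1.43e-10. These 3 genes had 95% intervals of -1.60 to -0.69, -1.13 to -0.67 and -1.08 to -0.61 on the log2 scale, which overlap one another and exclude 0.

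The other large subunit calls in the authors' deposited table were smaller or less precise. RPL8, which lies beside the peptidyl transferase centre, had -1.02 ± 0.39, a large fold change with a wide interval of -1.78 to -0.26 and an adjusted p of 0.0424. RPL26, which sits at the tunnel exit, had -0.69 ± 0.20 with an adjusted p of 0.00505. RPLP2, an acidic protein of the stalk that recruits elongation factors, had -0.49 ± 0.14 with an adjusted p of 0.00429. RPL22L1 had -0.43 ± 0.15 and RPL27 -0.40 ± 0.14, with adjusted p-values of 0.0254 and 0.0297. The call of RPL8 was lost when every deposited p-value entered the Benjamini-Hochberg adjustment, with an adjusted p of 0.0649.

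Small subunit genes had a median of -0.11, and 21 of the 32 lay below 0. Of the 32, 6 were called lower and 1 higher, which is 18.75% and 3.125%. The shares over the tested protein-coding genes were 13.4% lower and 12.7% higher. RPS10, which is ubiquitinated on stalled ribosomes, had -0.72 ± 0.27 with an adjusted p of 0.0403, or 0.0616 when every deposited p-value was adjusted. RPS23, a protein of the decoding centre, had -0.66 ± 0.21 with an adjusted p of 0.0136. RPS15A had -0.66 ± 0.20 with an adjusted p of 0.0076. RPS12, a protein of the head, had -0.45 ± 0.13 with an adjusted p of 0.00547. The difference between the subunits was not tested.

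RPS27, a zinc finger protein of the small subunit, was the exception in the authors' deposited table. Its log2 fold change was 0.76 ± 0.20 with an adjusted p of 0.00203, and group 8 held 169% of the group 7 level. The next highest was RPS28, a protein of the small subunit head, at 0.38 ± 0.19 with an adjusted p of 0.15, which is not a call. RPL3L at 0.33 ± 1.30, RPS13 at 0.21 ± 0.13 and RPS21 at 0.21 ± 0.17 complete the 5 highest, and none of these 3 was called. RPL36, at -0.88 ± 0.54 with an adjusted p of 0.264, was among the 5 lowest without a call. Nearest to 0 were RPS3A at 0.0058 ± 0.12, RPL19 at 0.01 ± 0.18, RPL31 at 0.013 ± 0.11, RPS19 at 0.02 ± 0.11 and RPL9 at -0.022 ± 0.15. RPS19 is the gene most often mutated in Diamond-Blackfan anaemia, and RPL19 and RPL31 lie at or near the tunnel exit.

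Values are also given by place in the ribosome, and differences between neighbouring proteins were not tested. The P stalk is a large subunit arm of RPLP0 with dimers of RPLP1 and RPLP2, and in the authors' deposited table RPLP0 had -0.035 ± 0.11 and RPLP1 -0.11 ± 0.13, with adjusted p-values of 0.87 and 0.629, whereas RPLP2 was called lower. The 95% interval of RPLP2, -0.76 to -0.21, overlaps that of RPLP1, -0.37 to 0.16. RPL5 and RPL11 bind 5S ribosomal RNA together and, outside the ribosome, bind the ubiquitin ligase MDM2. RPL5 had 0.087 ± 0.11 and RPL11 -0.50 ± 0.38, neither called, and the 95% interval of RPL11 ran from -1.26 to 0.25. Of 8 proteins around the tunnel exit, 1, RPL26, was called lower (12.5%), and their median was -0.046. Of 14 small subunit head proteins, 3 were called lower (21.4%), with a median of -0.13. Of 17 body proteins, 3 were called lower (17.6%) and RPS27 higher, with a median of -0.13. Of 20 genes known from Diamond-Blackfan anaemia, 6 were called lower (30.0%) and RPS27 higher, with a median of -0.26. Over the tested protein-coding genes, 13.4% were called lower and 12.7% higher. Of those with an SE up to 0.149, 19.4% were called lower, and of the 82 ribosomal protein genes 18.3%.

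Paralogues were compared with their parent genes, because a cell can use one in place of the other. RPL22 represses its paralogue Rpl22l1 in mice, and here both RPL22 and RPL22L1 were called lower in the authors' deposited table, RPL22L1 by less. RPS27L had 0.032 ± 0.16 and was not called, whereas RPS27 was called higher. RPL26L1 had -0.22 ± 0.15 and was not called, whereas RPL26 was called lower. RPL36AL had -0.39 ± 0.43 with an adjusted p of 0.581, and RPL36A was called lower. RPL39L had -0.032 ± 0.19 and RPL39, a small protein that lines the tunnel, -0.054 ± 0.12. RPL7L1 had -0.11 ± 0.11 and RPL7 -0.053 ± 0.10. RPL3L had its wide SE of 1.30, beside RPL3 at -0.15 ± 0.13. RPL22L1 was the only paralogue called, in the same direction as its parent, so no other pair could hold calls in opposite directions. The differences within pairs were not tested.

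The coding sequences of a pair show how far its reads can be told apart. Bases that differ within a pair are in capitals in the windows of 60 coding bases below, from GENCODE 29 transcripts. The window covers coding bases 22 to 81 of RPL22L1 (chromosome 3) and 37 to 96 of RPL22 (chromosome 1), and bases 1 to 60 of RPS27L (chromosome 15) and RPS27 (chromosome 1).
RPL22L1: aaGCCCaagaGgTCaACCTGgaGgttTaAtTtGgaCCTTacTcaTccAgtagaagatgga
RPL22: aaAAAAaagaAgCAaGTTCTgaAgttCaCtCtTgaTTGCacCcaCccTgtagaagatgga
RPS27L: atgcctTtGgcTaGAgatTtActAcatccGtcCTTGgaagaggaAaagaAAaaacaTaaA
RPS27: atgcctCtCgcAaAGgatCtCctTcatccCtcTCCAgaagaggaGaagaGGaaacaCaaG
In these windows 24 bases differ between RPL22L1 and RPL22 and 18 between RPS27L and RPS27. Over the aligned coding sequence the identity was 68.6% for RPL22L1 and RPL22, with no identical run longer than 17 bases. It was 78.0% with a longest run of 20 bases for RPS27L and RPS27, and 84.2% with a longest run of 20 bases for RPL26L1 and RPL26. The pairs RPL39L and RPL39, at 94.9% with a run of 44 bases, and RPL36AL and RPL36A, at 90.0% with a run of 63 bases, were more alike. A read that lies within this run could come from either RPL36A or RPL36AL. The read length is not given, so how far their values stand for separate genes is uncertain.

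**Figure D3:**
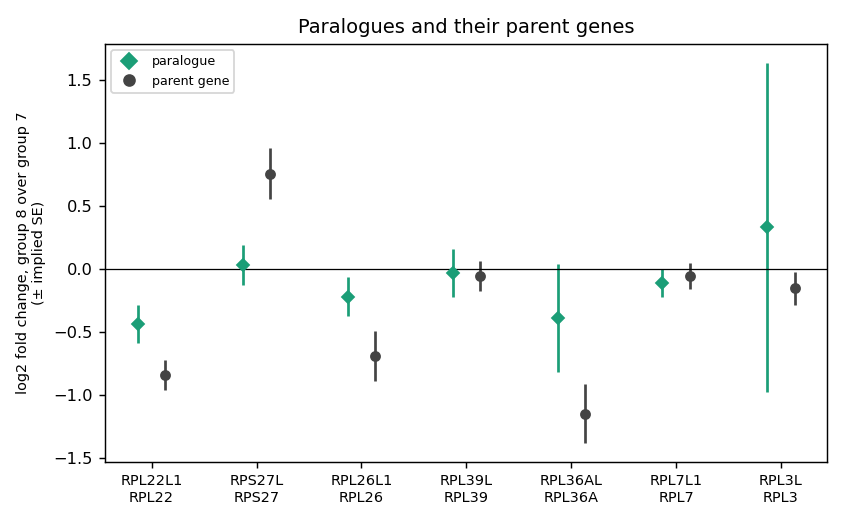
Log2 fold change, group 8 over group 7, of 7 paralogues (diamonds) and their parent genes (circles) from the authors' deposited table, with bars of 1 implied standard error. RPL22L1 and RPL22 both lie below 0, RPS27 lies at 0.76 above RPS27L near 0, and the bar of RPL3L spans most of the axis.

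A group of 8 ribosomal protein genes stood apart by imprecision. RPL36, RPL41, RPL23A, RPL27A, RPL30, RPL35, RPL8 and RPL11 had implied SEs of 0.54, 0.49, 0.49, 0.42, 0.42, 0.39, 0.39 and 0.38. No other tested ribosomal protein gene had an SE above 0.272. All 8 belong to the large subunit, all 8 lay below 0 with a median of -0.52, and only RPL8 was called. They are 9.76% of the 82 genes, and 21.3% of protein-coding genes had an SE over 0.3, of which 40.5% lay below 0. RPL41 encodes the shortest protein of the ribosome, and RPL23A and RPL35 lie at the tunnel exit. Across the 82 genes the SE was larger where the coding sequence was shorter, with a Spearman rho of -0.46, whereas the log2 fold change had a rho of -0.01 with coding length. The genes share the same libraries, and these values are descriptions. Without library values, what sets the SE of these 8 apart was not tested.

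**Figure D4:**
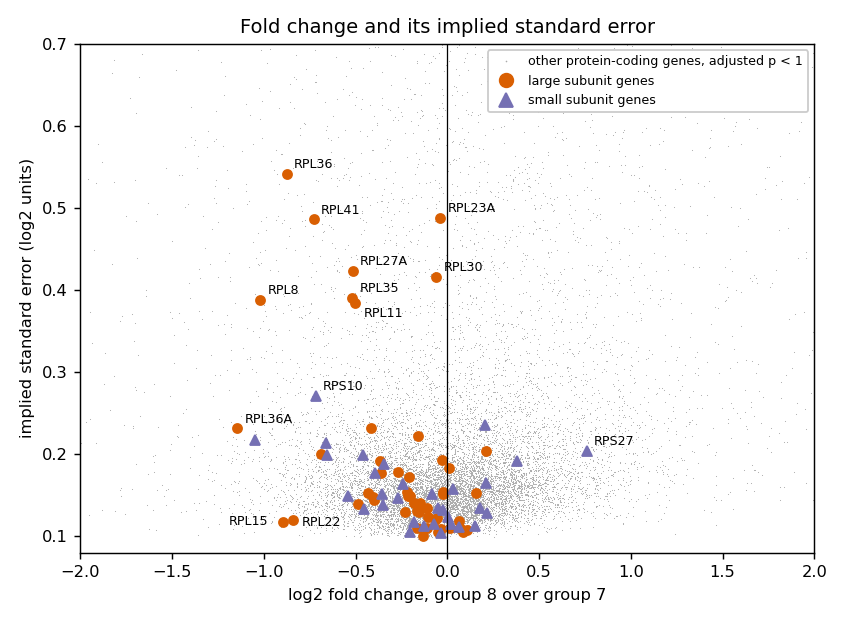
Implied standard error (log2 units) against log2 fold change, group 8 over group 7, for large subunit genes (circles), small subunit genes (triangles) and other tested protein-coding genes (dots), from the authors' deposited table. The 8 labelled large subunit genes from 0.38 upward all lie left of 0, and the axes leave out values beyond 2 and above 0.7.

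Ribosomal protein genes have many processed pseudogenes, copies of their mRNAs in the genome, so reads can be split between near-identical sequences. For 1 transcript of each gene, the share of its words of 50 bases that also occur in GENCODE 29 transcripts of other genes had a median of 23.8%. It was over 50% for 15 genes, among them the called genes RPS10 at 92.9% and RPS27 at 66.5%, whose fold changes are less certain as those of single genes. For RPS10 most of this share, 87.2%, was with the readthrough gene RPS10-NUDT3. RPL36A, at 35.4%, shared 33.0% with the readthrough gene RPL36A-HNRNPH2. Other called genes shared little, with 17.0% for RPL15, 16.1% for RPL22, 0.70% for RPL22L1 and 0.14% for RPLP2. The genes called lower had a median of 16.1% and the genes without a call 24.4%. The library protocol does not mark strand, and 51 of the 83 genes overlap exons of another gene, 4 of them over more than 25% of their exonic bases: RPL10, RPS10, RPL17 and RPS2.

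The table lists 309 pseudogenes named after these genes, of which 111 were tested. Their median log2 fold change was -0.026. Of the 111, 4 were called lower and 2 higher in the authors' deposited table, beside 11.2% lower and 10.4% higher over all genes tested. The 111 were measured less precisely, with a median implied SE of 0.53 beside 0.21 for all genes tested, so these shares are not alike in precision. The pseudogenes called lower were RPL41P1 at -1.46 ± 0.48, RPL13P12 at -0.59 ± 0.22, RPLP0P6 at -0.52 ± 0.19 and RPL7P9 at -0.50 ± 0.14. Their parents RPL41, RPL13, RPLP0 and RPL7 were not called. The higher ones were RPL22P2 at 2.33 ± 0.59, whose parent RPL22 was called lower, and RPS4XP16 at 2.04 ± 0.67, whose parent RPS4X was not called.

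Promoter sequences were found in RefSeq for 66 of the 83 genes. At the annotated start of 47 of them, 71.2%, a C begins a run of at least 5 pyrimidines, as it does for 5.14% of the 27305 genes with a RefSeq promoter entry. Of 10 genes called lower with an entry, 8 begin with such a run, and of 55 without a call, 38 do. The median log2 fold change in the authors' deposited table was -0.20 for the 47 genes with a run and -0.11 for the 19 without one exactly at an annotated start. This difference was not tested. In the window from 250 bases before to 50 bases after the start, on either strand, the letters CCGGAAG, the core that ETS-family factors bind, stood in 24 of the 66 genes, 36.4%, and in 12.2% of all genes. Of the 10 genes called lower 3 hold these letters, and of the 55 without a call 21 do. The letters AAGATGG, the core bound by YY1, stood in 13.6% of the ribosomal protein genes and 7.11% of all genes. TATAAA, the TATA box, stood in 6 of the 66, 9.09%, and in 3819 of the 27305 genes. CCGGAAG and AAGATGG can share the letters AAG. A match describes these letters and not a bound site.

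Genes that build and serve the ribosome were grouped into 8 lists by known function, and 6 of the 8 lists had a lower median than the ribosomal proteins. In the authors' deposited table, 24 of 45 ribosome biogenesis genes were called lower and none higher at an adjusted p under 0.05, with a median of -0.39. That is 53.3% lower, beside 13.4% of tested protein-coding genes and 19.4% of those with an SE up to 0.149. These 2 shares are the background for the lists that follow, except the non-coding RNAs, which are set beside all genes tested. Among them were BOP1 at -0.99 ± 0.16 and PES1 at -0.96 ± 0.16, partners in a complex that processes large subunit RNA. DKC1, the pseudouridine synthase of box H/ACA particles, had -0.67 ± 0.12, and GRWD1, the counterpart of a yeast chaperone of Rpl3, had -0.67 ± 0.13. Of 14 RNA polymerase I genes, 2 were called lower, the promoter factor subunit TAF1C at -0.44 ± 0.14 and POLR1C, shared with RNA polymerase III, at -0.42 ± 0.15, and the median of the list was -0.20.

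Of 20 translation initiation genes in the authors' deposited table, 6 were called lower and none higher, with a median of -0.24. EIF3D, a cap-binding subunit of eIF3, had -1.17 ± 0.11, EIF4G2, which drives cap-independent initiation, -0.63 ± 0.11, and EIF3B, the eIF3 scaffold, -0.61 ± 0.11. EIF6, which keeps free large subunits from joining small ones, had -0.96 ± 0.23. Of 11 elongation and termination genes, 6 were called lower and none higher, with a median of -0.35. EEF1D at -0.65 ± 0.15 and EEF1B2 at -0.38 ± 0.10 are exchange factors for the protein that delivers tRNA, EIF5A at -0.45 ± 0.12 frees stalled chains, and GSPT1 at -0.35 ± 0.11 is a release factor. The 4 ribosomal proteins outside the rule had a median of -0.24 and no call, with FAU at 0.10 ± 0.17 and RACK1 at -0.25 ± 0.15.

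A list of other mRNAs with a TOP motif held no call. None of its 19 genes, of which 18 were tested, was called in either direction by the authors' deposited table. Over the tested protein-coding genes, 13.4% were called lower and 12.7% higher. The list leaves out genes placed in the other lists, whether or not their mRNAs carry the motif. Among those left out are the 11 elongation and termination genes, of which 6 were called lower. Of the 19, 1 had an unadjusted p under 0.05, and their median was -0.055. They include PABPC1, the poly-A binding protein, at -0.099 ± 0.13, and NACA at -0.19 ± 0.11, which binds chains as they leave the ribosome. Non-coding RNAs that host small nucleolar RNAs, several of which also begin with a TOP motif, were mixed. Of 13, 4 were called lower and 1 higher, with a median of -0.27, beside 11.2% lower and 10.4% higher over all genes tested. SNHG1 at -0.44 ± 0.11, SNHG7 at -0.56 ± 0.18, SNHG12 at -0.60 ± 0.17 and SNHG15 at -0.52 ± 0.16 were lower, and GAS5 was higher at 0.30 ± 0.12 with an adjusted p of 0.0497.

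Of 18 regulators of ribosomal protein production, 3 were called lower and 1 higher in the authors' deposited table, with a median of -0.0083. MYC had -0.60 ± 0.12 with an adjusted p of 9.64e-06, and MNT, a repressor that competes for the MYC partner MAX, had -1.02 ± 0.18. LARP1, which binds the cap and TOP motif of these mRNAs, had -0.39 ± 0.12 with an adjusted p of 0.0111. LARP4, which binds poly-A tails and PABPC1, had 0.74 ± 0.15. MTOR at -0.16 ± 0.12 and EIF4EBP1, the cap-binding inhibitor that MTOR phosphorylates, at -0.60 ± 0.42 were not called. Over all 8 lists outside the ribosomal proteins, 45 of 144 measured genes were called lower and 2 higher, with a median of -0.24. These lists hold non-coding RNAs too, and over all genes tested 11.2% were called lower and 10.4% higher. No list was tested as a set.

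**Figure D5:**
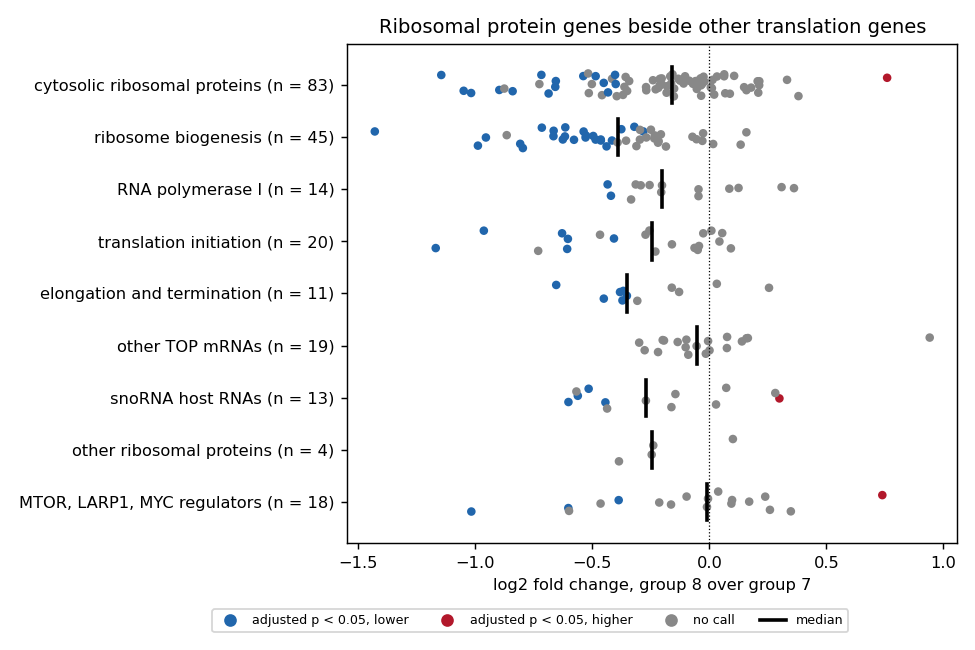
Log2 fold change, group 8 over group 7, of ribosomal protein genes (top row) and of 8 lists of related genes from the authors' deposited table, 1 point per gene, with vertical bars for list medians and colour for an adjusted p under 0.05. The medians run from -0.39 for ribosome biogenesis to -0.0083 for the regulators, with the ribosomal proteins at -0.16.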

How the data were processed

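RNA was poly-A selected and sequenced from 1 shPCDH1 and 1 shNC sample, per the labels' protocols. The submitters' processing notes name DESeq2 1.20.0, featureCounts 1.5.0-p3, HISAT2 2.0.5 and CASAVA as tools of the authors. The sources used here do not give their roles and parameters, the scaling of the libraries, the read length or the genome build. Gene identifiers and names, 27655 in all, match GENCODE release 29 (GRCh38).

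The log2 fold change, group 8 over group 7, and the p-value and adjusted p-value of each gene were deposited by the authors, per the file headers. Other deposited columns hold the authors' gene annotation. A further 20 columns, with values per library or coded group, were left unused throughout, since no label ties them to a GEO sample. No depth can be given for the libraries for this reason, no filter on level was applied, and no count model was fitted. The foreseen test on library values was replaced by the deposited p-values.

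The implied SE is the size of the log2 fold change over the normal quantile of its p-value. It assumes a Wald test, which the sources used here do not state. Values were given for called genes, the 5 highest, 5 lowest and 5 nearest 0, the P stalk, the RPL5 and RPL11 pair, and paralogues with parents. From each other list up to 4 called genes with the smallest adjusted p were named, with MYC, LARP1, MTOR, EIF4EBP1 and PCDH1. Some genes that this rule names are not reported here. Genes with an SE over 0.3, called pseudogenes, genes with shared or overlapping sequence, examples of uncalled TOP mRNAs and the division at the median SE were chosen after their values were seen. Members and lists were chosen with earlier results of these data known. The computations were tested on simulated data. Alternatives were adjusted p thresholds of 0.01 and 0.10, a minimum absolute log2 fold change of 0.5, Benjamini-Hochberg adjustment of all deposited p-values or of protein-coding genes alone, members without paralogues, centring on the protein-coding median, and means in place of medians. Python 3.11.15, pandas 2.3.3, numpy 2.4.6, scipy 1.17.1, Biopython 1.88 and matplotlib 3.10.9 were used.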

Additional observations from a re-analysis of the deposited data

How the results depend on the processing

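The median of the 83 ribosomal protein genes stayed below 0 under each alternative run, between -0.21 as a mean and -0.15 as a mean weighted by precision, and the share below 0 ran from 75.9% to 76.8%. The 15 genes called lower became 9 at an adjusted p under 0.01. The 9 large subunit calls became 5 at an adjusted p under 0.01 and 5 with a minimum absolute log2 fold change of 0.5. The 6 small subunit calls became 10 at an adjusted p under 0.10. In the lists outside the ribosomal proteins, the 45 lower calls became 26 with a minimum absolute log2 fold change of 0.5. The 2 higher calls became 4 at an adjusted p under 0.10, and 1 under each of 4 alternatives: an adjusted p under 0.01, a minimum absolute log2 fold change of 0.5, adjustment over every deposited p-value, and adjustment over protein-coding genes alone, which leaves out the non-coding hosts. These follow from the thresholds and the genes adjusted over. The other counts stayed within 1.5 times. No paired analysis was possible because no label ties a library column to shPCDH1 or shNC, so library columns were not used. Leaving out single libraries was not run for the same reason. Depth is unknown, so what a count of 0 or a low level allows could not be set.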
